A study of Mus musculus with 30 samples.

Results

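MC38OVA and CT26NYESO1 are tumour lines named for a model antigen, ovalbumin of the chicken and NY-ESO-1 of humans, and are set here against MC38 and CT26, the mouse colon carcinoma lines they carry in their names. For each gene, the change in the CT26 pair (CT26NYESO1 minus CT26) was subtracted from the change in the MC38 pair (MC38OVA minus MC38). This difference between the pair changes, on the log2(TPM + 1) scale (TPM are transcript levels scaled for length and library), is the interaction. It is positive where the MC38 pair moved upward relative to the CT26 pair. The lines had 3 libraries each, 12 of the 30 libraries of the series. Of 55291 gene symbols, 15648 stood at 1 TPM or more in at least 3 of the 12 libraries and were tested. A change was called where limma gave an adjusted p (Benjamini-Hochberg, over all tested genes) under 0.05, with a size of at least 1 (log2) in either direction. A gene was said to move alike where its change was called in the same direction in both pairs, which share no libraries. The interaction was called for 614 genes (3.92% of those tested) and 19 genes (0.121%) moved alike. In the MC38 pair 2.63% and in the CT26 pair 2.97% of genes were called in either direction.

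The series was assembled to ask which tumours may suit treatment with OK-432, a preparation of killed streptococci. Each of the 12 libraries was labelled as CD45+ immune cells infiltrating a subcutaneous mouse tumour, collected at a tumour length of 10 mm. The protocol describes RNA from suspensions of enzymatically digested tumour and names no step of sorting. It mentions hosts of the BALB/cJ or C57BL/6J strain, and tumours given or not given OK-432 for 24 hours, without tying either to a library, so neither could be used as a group. The pairs differ in parental line and in antigen at the same time, and may differ in mouse strain as well. These cannot be told apart. How the antigens were introduced and whether a line is 1 clone was not recorded in the labels, and the antigens' own transcripts were not analysed here. No label states that the replicates of a line are different mice, so the p-values measure the spread between these samples, which may be technical. TPM hold no read counts, so the depth behind a value is unknown.

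Ovalbumin and NY-ESO-1 are foreign to the mouse, and tumours that carry them are used to follow T cells directed at a known target. Tumours also draw monocytes from the blood, which mature there into macrophages, and both cell types sense microbes and damage through innate receptors and release cytokines such as interleukin 1. Selectins slow leukocytes on the vessel wall, matrix metalloproteinases cut the proteins between cells, and thrombospondins bind to that matrix.

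The replicates of a line correlated at 0.979 to 0.989 (Pearson's r across genes), and no libraries held identical values. Levels of Ptprc, the gene of CD45, stood at 87.5, 215 and 159 TPM in MC38OVA, against 78.7, 46.6 and 82.96 TPM in MC38, and at 41.2, 32.96 and 38.3 TPM in CT26NYESO1, against 50.2, 27.2 and 54.5 TPM in CT26. The mean log2(TPM + 1) of 10 pan-leukocyte genes lay between 6.47 and 7.62 in MC38OVA, against 5.56 to 6.33 in MC38, and between 5.55 and 5.77 in CT26NYESO1, against 5.33 to 5.99 in CT26. The leukocyte markers were therefore above those of the parental line in the MC38 pair only, without overlap, while the CT26 pair overlapped. Ptprc itself had an interaction of 1.26 ± 0.42 (SE, adjusted p = 0.0951). Dcn of the fibroblast list and Pecam1 of the endothelial list were also present in every library, at no less than 55.8 and 5.31 TPM. Which cells these transcripts came from was not tested. The epithelial genes Epcam and Krt8 reached at most 0.607 and 0.773 TPM, but not all epithelial genes were low. Krt20 stood at 116 to 136 TPM in CT26 and at 6.56 TPM or below in the other lines. In bulk libraries, fewer cells of a type and less RNA per cell cannot be told apart. MC38 replicate 3 stood apart, with 27.5% of its TPM from mitochondrially encoded genes (11.03% to 25.8% in the other 11 libraries) and 3.86% from haemoglobin genes (0.143% to 1.27%).

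The interaction was positive in 492 genes (3.14% of those tested) and negative in 122 (0.78%), so 80.1% of the called genes moved upward in the MC38 pair relative to the CT26 pair. Of the 492, the CT26 pair change alone was called in 232, the MC38 pair change alone in 97, both in opposite directions in 8, both in the same direction in 1, and neither in 154. Of the 122, the CT26 pair alone was called in 53, the MC38 pair alone in 12 and neither in 57. Pair changes were of opposite sign in 81.7% of the genes with a positive and 89.3% of those with a negative interaction. These genes were called for the difference between their pair changes, which by itself favours opposite signs. The share over all tested genes was not determined, so these shares are a description. Each pair had a line with a mean of at least 1 TPM for 366 of the 492 genes and 105 of the 122, and in the rest the interaction is in effect the change of the one pair that expressed the gene. Over all tested genes the median interaction was -0.04, and the pair changes had an r of -0.00403 across genes, which are not independent replicates.

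Single libraries moved these counts. Positive and negative calls numbered 952 and 151 without MC38OVA replicate 1, 861 and 127 without CT26 replicate 2, 565 and 353 without MC38 replicate 3, 343 and 56 without MC38 replicate 1, 352 and 73 without MC38 replicate 2, 331 and 93 without CT26 replicate 1, 303 and 68 without CT26 replicate 3, 279 and 69 without MC38OVA replicate 2, 255 and 57 without CT26NYESO1 replicate 2, 439 and 76 without CT26NYESO1 replicate 3, and 238 and 54 without MC38OVA replicate 3. With the leukocyte score as a covariate, 113 and 17 were called, 121 of them among the 614. The score did not overlap between MC38OVA and MC38, which widens the errors of a fit that holds it. Calls can therefore be lost with this covariate even where the change is no smaller.

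**Figure D1:**
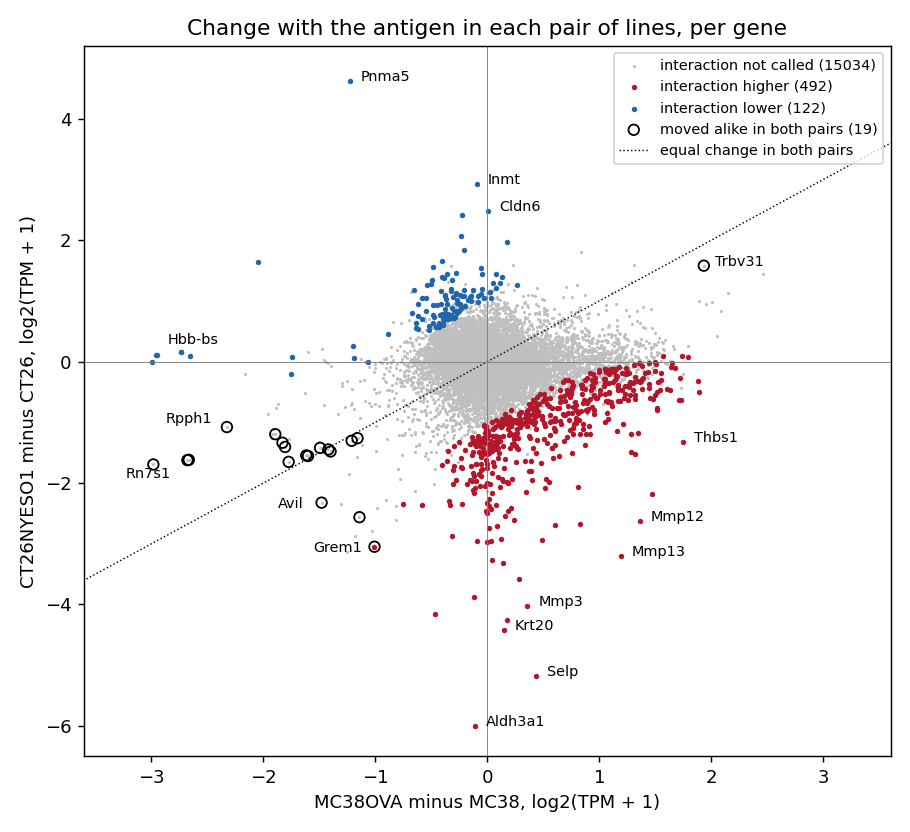
Change of each of the 15648 tested genes in the MC38 pair (horizontal axis) and the CT26 pair (vertical axis), both in log2(TPM + 1); red and blue points are the 492 and 122 genes with a called positive and negative interaction, circles the 19 genes that moved alike, and the dotted line marks equal change. Red points lie below the dotted line, mostly with a negative CT26 pair change, and the circles lie almost all at lower left.

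The genes with the largest positive interaction were high in CT26 and low in CT26NYESO1, most of them with little expression or little change in the MC38 pair. Mmp13 and Mmp12, described below, differed in having called rises in the MC38 pair, of 1.19 and 1.36. Aldh3a1 (chromosome 11, 61207537 to 61218421), an aldehyde dehydrogenase that clears reactive aldehydes, stood at 1.44, 2.90 and 1.37 TPM in MC38OVA, against 2.04, 2.15 and 1.94 TPM in MC38, and at 0.141, 0 and 0.303 TPM in CT26NYESO1, against 98.03, 52.1 and 74.6 TPM in CT26. Its CT26 levels stood far above those of the other 9 libraries. Its interaction was 5.90 ± 0.34 (SE, adjusted p = 4.52e-09). Selp, the gene of P-selectin on platelets and activated endothelium, stood at 0.592, 0.410 and 1.19 TPM in MC38OVA, against 0.282, 0.379 and 0.132 TPM in MC38, and at 0.251, 0.379 and 0.411 TPM in CT26NYESO1, against 42.03, 44.2 and 59.4 TPM in CT26. The interaction was 5.62 ± 0.29 (SE, adjusted p = 1.49e-09). Krt20, an intermediate filament gene of intestinal epithelium, stood at 0.0384, 0.141 and 0.279 TPM in MC38OVA, against 0, 0 and 0.119 TPM in MC38, and at 3.88, 6.56 and 4.39 TPM in CT26NYESO1, against 136, 119 and 116 TPM in CT26. Its interaction was 4.56 ± 0.29 (SE, adjusted p = 1.15e-08), and of 7 tested epithelial genes no other was called. For these genes nearly all of the interaction was the CT26 pair change, at -6.01, -5.19 and -4.42.

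Of the other genes of this kind, Plekha6, Slc1a2 (a glutamate transporter) and Slit3 (a guidance ligand) had interactions of 4.42 ± 0.28, 3.75 ± 0.32 and 3.87 ± 0.37 (SE). In CT26 libraries their levels ranged from 29.5 to 43.8, from 9.95 to 22.1 and from 65.9 to 100.02 TPM, and all 9 other libraries stood below 10 TPM. Thbs2, a matrix protein that binds metalloproteinases, differed in being expressed in every line, at 15.5, 14.4 and 19.5 TPM in MC38OVA, against 21.1, 35.1 and 16.5 TPM in MC38, and at 16.9, 10.7 and 10.7 TPM in CT26NYESO1, against 325, 176 and 245 TPM in CT26. The MC38 pair overlapped, the CT26 pair was far apart. The interaction was 3.70 ± 0.37 (SE, adjusted p = 7.61e-06). Ceacam1, an adhesion receptor of epithelium and leukocytes, stood at 6.34, 8.77 and 12.3 TPM in MC38OVA, against 3.68, 5.57 and 4.55 TPM in MC38, and at 3.52, 2.36 and 4.46 TPM in CT26NYESO1, against 29.2, 23.3 and 28.5 TPM in CT26. Both pairs were apart, in opposite directions, but only the CT26 pair change was called (-2.68 ± 0.24, against 0.83 ± 0.24 with an adjusted p of 0.0625 in the MC38 pair). The interaction was 3.50 ± 0.34 (SE, adjusted p = 4.58e-06). The 12 positive genes chosen for the size of their interaction kept their call under every alternative that tested them, but Selp, Krt20, Plekha6, Slc1a2 and Slit3 were not tested with a mean of at least 1 TPM required in a line of each pair.

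Both pair changes were called, in opposite directions, in 8 genes (0.0511% of those tested), and in each it was the MC38 pair that rose and the CT26 pair that fell. Over all genes 2.26% were called as MC38 pair rises and 2.45% as CT26 pair falls, against 0.371% and 0.524% the other way. The direction of the 8 follows in part from these shares. Whether 8 is more than unrelated pair changes with these shares would give was not tested. Of the 8, 7 are described by name. Thbs1 (chromosome 2, 118111876 to 118127133), a secreted matrix protein that activates TGF-beta, stood at 145, 262 and 354 TPM in MC38OVA, against 83.3, 46.9 and 87.6 TPM in MC38, and at 6.90, 6.96 and 8.37 TPM in CT26NYESO1, against 30.2, 11.7 and 22.3 TPM in CT26. Its changes were 1.75 ± 0.32 (SE, adjusted p = 0.0132) in the MC38 pair and -1.32 ± 0.32 (SE, adjusted p = 0.0157) in the CT26 pair. The interaction was 3.07 ± 0.45 (SE, adjusted p = 0.000537). Il1b, the inflammatory cytokine interleukin 1 beta, stood at 147, 254 and 289.8 TPM in MC38OVA, against 134, 60.8 and 117 TPM in MC38, and at 26.5, 36.5 and 20.1 TPM in CT26NYESO1, against 59.1, 56.6 and 66.5 TPM in CT26, with changes of 1.16 ± 0.28 and -1.14 ± 0.28 and an interaction of 2.30 ± 0.40 (SE, adjusted p = 0.00221).

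Pf4, the chemokine CXCL4 of platelets and macrophages, stood at 90.9, 58.8 and 122 TPM in MC38OVA, against 39.8, 20.7 and 52.2 TPM in MC38, and at 9.93, 13.1 and 26.6 TPM in CT26NYESO1, against 53.6, 39.6 and 41.98 TPM in CT26. Neither pair overlapped. The interaction was 2.78 ± 0.47 (SE, adjusted p = 0.00187). Gpr141, an orphan receptor, stood at 12.5, 35.4 and 28.9 TPM in MC38OVA, against 10.1, 7.15 and 10.3 TPM in MC38, and at 3.16, 2.57 and 3.57 TPM in CT26NYESO1, against 10.6, 4.97 and 10.7 TPM in CT26. The interaction was 2.48 ± 0.44 (SE, adjusted p = 0.00299). Abca1, which exports cholesterol from macrophages, stood at 13.99, 11.4 and 24.2 TPM in MC38OVA, against 5.64, 4.77 and 6.44 TPM in MC38, and at 10.9, 5.18 and 8.98 TPM in CT26NYESO1, against 25.4, 13.7 and 20.5 TPM in CT26. Among the 8 genes it alone had a higher mean in CT26 than in MC38OVA, at 19.9 against 16.6 TPM, and those lines overlapped. The interaction was 2.52 ± 0.40 (SE, adjusted p = 0.00114). Mmp12 and Mmp13 were also among the 8. Libraries of both pairs failed to overlap in each of the 8 genes, against 3.11% of all tested genes (13.1% for the MC38 pair alone and 27.2% for the CT26 pair). This follows in large part from both changes having been called.

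The interactions of these 8 genes kept their call whichever library was left out, whereas the MC38 pair rises did not: all 8 were lost without MC38 replicate 2 (adjusted p 0.0902 to 0.275) or without MC38OVA replicate 3 (0.0713 to 0.219), 5 without MC38OVA replicate 2 (0.0555 to 0.208), 3 without MC38 replicate 1 and 2 without MC38OVA replicate 1. Of the CT26 pair falls, 4 were lost without CT26 replicate 3 (0.0509 to 0.114), 3 without each of CT26 replicate 1, CT26NYESO1 replicate 1 and CT26NYESO1 replicate 2, 1 (Il1b) without CT26NYESO1 replicate 3 and 1 (Gpr141) without MC38 replicate 3. All 8 rises were also lost with the leukocyte score as a covariate (0.253 and above), and with it the interactions of Pf4, Gpr141 and Il1b (0.0515 to 0.148). With no filter on low values all 8 rises, 5 falls and the interactions of Pf4, Gpr141 and Il1b (0.0701 to 0.0769) were lost. With all 30 libraries in the fit 5 rises, 3 falls and the interaction of Il1b (0.0787) were lost, and with median-ratio scaling 4 rises.

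**Figure D2:**
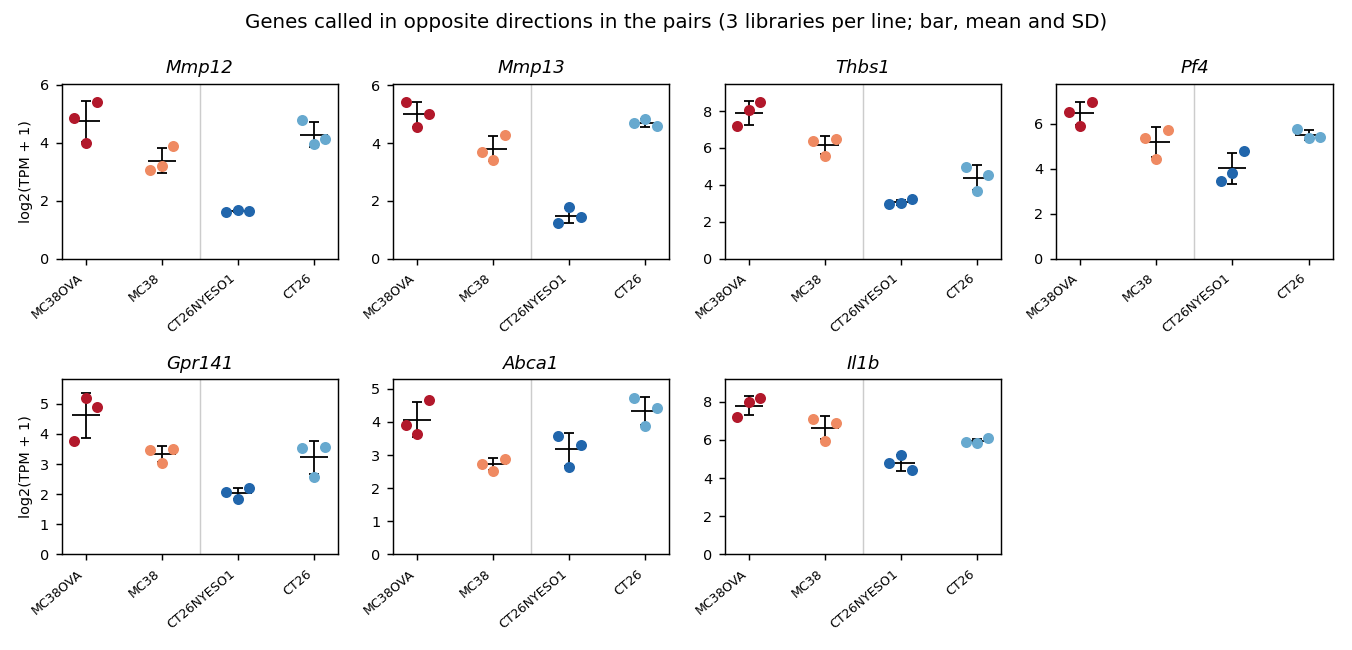
Levels, in log2(TPM + 1), of 7 of the 8 genes called in opposite directions, with 1 point for each library and the mean and SD (n = 3) for each line. In each gene the 3 MC38OVA points lie above the 3 MC38 points and the 3 CT26NYESO1 points below the 3 CT26 points.

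Matrix metalloproteinase genes were among the strongest of the interaction, and a run of them lies side by side on chromosome 9. Of 10 Mmp genes annotated there, 5 were tested and 4 called, and of 13 tested Mmp genes in the genome 6 were called, all positive (3.14% of all genes). These families were picked out after their values were seen and are a description. Mmp13 (chromosome 9, 7272514 to 7283331), a collagenase, stood at 41.5, 22.6 and 31.1 TPM in MC38OVA, against 11.9, 9.78 and 18.3 TPM in MC38, and at 1.36, 2.43 and 1.74 TPM in CT26NYESO1, against 24.7, 27.5 and 22.9 TPM in CT26. Mmp12 (chromosome 9, 7344381 to 7369499), the elastase of macrophages, stood at 27.8, 14.9 and 41.1 TPM in MC38OVA, against 7.40, 8.25 and 13.7 TPM in MC38, and at 2.08, 2.21 and 2.16 TPM in CT26NYESO1, against 26.4, 14.4 and 16.5 TPM in CT26. In both genes CT26NYESO1 stood lowest, at under 2.5 TPM, and the interactions were 4.40 ± 0.35 (SE, adjusted p = 3.56e-07) and 3.99 ± 0.42 (SE, adjusted p = 1.28e-05).

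Mmp3 (chromosome 9, 7445822 to 7455975), stromelysin 1, which cuts several matrix proteins and activates other metalloproteinases, stood at 3.34, 0.841 and 4.59 TPM in MC38OVA, against 1.11, 1.09 and 3.80 TPM in MC38, and at 5.80, 10.6 and 4.67 TPM in CT26NYESO1, against 68.9, 211 and 128 TPM in CT26. The MC38 pair overlapped at low levels, so that its interaction of 4.38 ± 0.60 (SE, adjusted p = 0.000235) rests on the CT26 pair. Mmp8, the collagenase of neutrophils, stood at 12.7, 8.02 and 17.9 TPM in MC38OVA, against 4.73, 6.44 and 4.85 TPM in MC38, and at 0.657, 0.438 and 0.681 TPM in CT26NYESO1, against 2.98, 1.25 and 2.17 TPM in CT26. Its interaction was 2.02 ± 0.36 (SE, adjusted p = 0.00303). Elsewhere in the genome, Mmp19 and Mmp28 had interactions of 1.97 ± 0.34 and 2.12 ± 0.30 (SE), while the gelatinase genes Mmp2 and Mmp9 and the membrane-bound Mmp14 were not called, at -0.30, -0.31 and 0.27. Mmp12 overlaps Mmp1b on the other strand, and the use of strand in quantification is not given, so reads of the pair cannot be told apart there; Mmp1b itself reached at most 0.0777 TPM.

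Promoters of the cluster genes with the largest interaction are shown for the letters TGANTCA, the binding motif of AP-1 (the Fos and Jun factors). Each window shown holds it within the 50 bases before its RefSeq gene start. The windows are the 300 bases from 250 before to 50 after that start, from RefSeq on GRCm38.p6, plus strand, with the motif in capitals.
Mmp13, chr9:7272264-7272563: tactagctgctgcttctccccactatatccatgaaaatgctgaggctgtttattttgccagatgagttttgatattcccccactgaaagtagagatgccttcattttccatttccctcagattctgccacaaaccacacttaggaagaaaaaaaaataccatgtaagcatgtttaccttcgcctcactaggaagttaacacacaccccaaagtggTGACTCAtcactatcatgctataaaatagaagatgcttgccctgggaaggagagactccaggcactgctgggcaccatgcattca
Mmp12, chr9:7347124-7347423: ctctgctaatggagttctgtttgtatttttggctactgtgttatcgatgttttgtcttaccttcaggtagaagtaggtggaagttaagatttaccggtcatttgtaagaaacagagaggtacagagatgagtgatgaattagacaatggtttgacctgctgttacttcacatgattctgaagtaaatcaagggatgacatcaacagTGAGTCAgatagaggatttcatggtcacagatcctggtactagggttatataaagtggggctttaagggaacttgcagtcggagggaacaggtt
Mmp3, chr9:7445572-7445871: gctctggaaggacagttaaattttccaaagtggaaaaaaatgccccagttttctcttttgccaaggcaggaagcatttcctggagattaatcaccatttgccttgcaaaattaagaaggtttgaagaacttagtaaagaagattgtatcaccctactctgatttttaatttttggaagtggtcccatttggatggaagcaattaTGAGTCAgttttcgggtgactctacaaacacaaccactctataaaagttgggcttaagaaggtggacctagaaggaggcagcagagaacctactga
The match begins 35, 44 and 46 bases before the RefSeq start shown for Mmp13, Mmp12 and Mmp3. The window shown for Mmp12 lies inside its annotated span, which begins at 7344381. The motif reads the same on both strands, was chosen after the values were seen and overlaps no other motif searched. It occurs in 2565 of 32851 RefSeq windows of this length (7.81%) and in those of 6 of the 32 named genes that have one: Mmp3, Mmp12, Mmp13, Selp, Hbb-bs and Rhbdl2. Mmp12 and Rhbdl2 have 2 windows each, of which 1 holds the motif. A match is no evidence of binding. Among the genes of AP-1 and related early factors, Fos, with 37.3, 69.6 and 77.03 TPM in MC38OVA, against 32.3, 30.2 and 36.1 TPM in MC38, and at 15.97, 13.6 and 14.5 TPM in CT26NYESO1, against 37.3, 21.1 and 32.4 TPM in CT26, had an interaction of 1.78 ± 0.34 (SE, adjusted p = 0.00558). Fosb, Jun, Junb and Jund were tested too and had no called interaction. A link between Fos and the genes with the motif was not tested.

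Other neighbouring genes were called together. The selectin genes Sele and Selp, near each other on chromosome 1, both had a called positive interaction, at 1.35 ± 0.28 for Sele and 5.62 ± 0.29 for Selp (SE). They did not follow the endothelial list, which summed to 106 to 138 TPM in MC38OVA and 25.2 to 50.2 TPM in CT26. None of its 11 tested genes was called in the CT26 pair (2.97% of all genes were). Which cells the selectin transcripts came from was not tested. Sele, the E-selectin of activated endothelium, stood at 0.193, 0.1001 and 0.119 TPM in MC38OVA, against 0.0831, 0.0376 and 0.0549 TPM in MC38, and at 36.6, 45.1 and 54.8 TPM in CT26NYESO1, against 104, 93.00 and 131 TPM in CT26, so its interaction is the fall in the CT26 pair alone, at -1.25 ± 0.20 (SE, adjusted p = 0.000477). Of the 12 PYHIN genes (DNA sensors induced by interferon) in their cluster on chromosome 1, 7 had a called positive interaction (3.14% of all genes), among them Ifi208 at 2.25 ± 0.52, Mndal at 1.96 ± 0.33 and Ifi203 at 1.95 ± 0.31. Paralogs of this family can share reads and neighbours overlap in the annotation, which leaves the level of any 1 member uncertain. Of 9 tested CXC chemokine genes on chromosome 5, the 4 called as positive (3.14% of all genes) were Pf4, Cxcl5 (2.20 ± 0.48), Cxcl3 (2.05 ± 0.45) and Ppbp (1.91 ± 0.39), which adjoin one another, whereas Cxcl9, Cxcl10 and Cxcl11, the ligands induced by interferon, stood at 0.84, 0.19 and 0.02. Cxcl5, a neutrophil attractant, stood at 14.3, 7.50 and 7.45 TPM in MC38OVA, against 10.01, 5.10 and 3.34 TPM in MC38, and at 1.36, 3.68 and 1.43 TPM in CT26NYESO1, against 10.3, 5.58 and 8.22 TPM in CT26. Of 4 tested Ces1 carboxylesterase genes on chromosome 8, 3 were called as positive (3.14% of all genes), led by Ces1f at 2.98 ± 0.37, which was listed at 0 in all 6 libraries of the MC38 pair.

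Of the myeloid gene lists, those of monocytes, macrophages and innate receptors had higher median interactions than those of neutrophils and dendritic cells. The 11 monocyte genes had a median interaction of 1.77, the 15 macrophage genes 1.18 and the 21 innate receptor genes 1.16, against -0.04 over all tested genes. The median was 0.79 for neutrophil, 0.51 for conventional dendritic, 0.54 for mature dendritic and 0.39 for plasmacytoid dendritic cell genes. In the first 3 lists positive calls numbered 3 of 11, 4 of 15 and 6 of 21, against 3.14% of all genes, and none was negative. In the MC38 pair 7 genes of each list were called as rises (2.26% of all genes were), with medians of 1.39, 1.14 and 0.75, and in the CT26 pair 2, 2 and 0 as falls (2.45% of all), with medians of -0.67, -0.20 and -0.20. The MC38 pair rises rest on few libraries, since over all genes 353 were called, but 677 without MC38OVA replicate 1, 16 without MC38OVA replicate 2, 5 without MC38 replicate 2, 3 without MC38OVA replicate 3 and 0 with the leukocyte score as a covariate. Of 10 pan-leukocyte genes, 8 rose in the MC38 pair and none was called in the CT26 pair, with a median interaction of 1.10 and 1 call (Arhgdib, at 1.23). The leukocyte score thus moved with these lists, and its part in them was not tested beyond its use as a covariate, which left 1 monocyte, 1 macrophage and no innate receptor gene called, with medians of 0.61, 0.30 and 0.38.

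Chil3 and Plac8 were among the monocyte calls. Chil3, a chitinase-like protein of inflammatory monocytes, stood at 30.5, 120.1 and 162 TPM in MC38OVA, against 42.7, 26.1 and 21.2 TPM in MC38, and at 0.307, 0.313 and 0.426 TPM in CT26NYESO1, against 1.72, 0.712 and 1.61 TPM in CT26. Its interaction was 2.29 ± 0.58 (SE, adjusted p = 0.0316). MC38OVA replicate 1 lay among the MC38 libraries, and the call was lost without CT26 replicate 1, CT26 replicate 3, CT26NYESO1 replicate 1, CT26NYESO1 replicate 2, MC38 replicate 2, MC38 replicate 3, MC38OVA replicate 2 or MC38OVA replicate 3 (adjusted p 0.0541 to 0.0928). Among innate receptors the calls were Tlr9, Clec7a, Clec4e, Tlr5, Tlr7 and Cd14. Tlr9, which senses unmethylated CpG DNA, stood at 24.5, 63.9 and 54.9 TPM in MC38OVA, against 18.3, 6.91 and 15.98 TPM in MC38, and at 2.53, 0.857 and 1.77 TPM in CT26NYESO1, against 2.01, 1.49 and 3.30 TPM in CT26. The interaction was 1.99 ± 0.51 (SE, adjusted p = 0.0311). Clec7a, the receptor dectin-1 for fungal glucans, stood at 43.1, 67.2 and 58.5 TPM in MC38OVA, against 29.5, 20.3 and 37.1 TPM in MC38, and at 10.1, 8.21 and 11.2 TPM in CT26NYESO1, against 18.8, 11.1 and 26.4 TPM in CT26. The interaction was 1.75 ± 0.38 (SE, adjusted p = 0.0129). The macrophage calls were Apoe (1.85 ± 0.50), Gpnmb (1.83 ± 0.39), Mertk (1.62 ± 0.32) and Cd68 (1.35 ± 0.35). Of these, Gpnmb, a glycoprotein of lipid-laden macrophages, stood at 239, 147 and 161 TPM in MC38OVA, against 192, 263 and 165 TPM in MC38, and at 10.3, 4.88 and 8.16 TPM in CT26NYESO1, against 46.3, 22.2 and 35.8 TPM in CT26, and only its CT26 pair change was called (-2.02 ± 0.27). Innate receptor calls numbered 13 without MC38OVA replicate 1, 12 without CT26 replicate 2, 9 without CT26NYESO1 replicate 3, 3 without CT26 replicate 3 or CT26NYESO1 replicate 1, 2 without CT26 replicate 1 or CT26NYESO1 replicate 2, and 1 without MC38 replicate 2, MC38OVA replicate 2 or MC38OVA replicate 3. Monocyte calls numbered 8 without MC38OVA replicate 1, 7 without CT26 replicate 2, 5 without CT26NYESO1 replicate 3, and 1 without CT26 replicate 1, CT26 replicate 3, MC38OVA replicate 2 or MC38OVA replicate 3. Macrophage calls numbered 7 without MC38OVA replicate 1, and 2 without CT26 replicate 3, CT26NYESO1 replicate 1, CT26NYESO1 replicate 2, MC38 replicate 1, MC38 replicate 2 or MC38OVA replicate 3.

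Mast cell genes had 5 of 9 tested members called as positive (3.14% of all genes), with a median interaction of 1.67. Cma1, Mcpt4 and Tpsb2, proteases stored in mast cell granules, had interactions of 2.39 ± 0.62, 2.37 ± 0.62 and 2.31 ± 0.55 (SE, adjusted p between 0.0234 and 0.0373), and Cpa3 and Fcer1a were the other calls. Tpsb2 stood at 3.36, 8.42 and 3.85 TPM in MC38OVA, against 0.892, 0.652 and 1.74 TPM in MC38, and at 26.6, 19.5 and 17.1 TPM in CT26NYESO1, against 79.9, 17.5 and 34.6 TPM in CT26. The MC38 pair was apart at low levels, and the CT26 pair overlapped, with CT26 replicate 1 far above the other CT26 libraries. Summed over the list, levels ran from 19.7 to 44.0 TPM in MC38OVA, against 8.22 to 13.7 TPM in MC38, and from 76.7 to 97.4 TPM in CT26NYESO1, against 71.3 to 268 TPM in CT26, so the list was most abundant in the pair in which none of its genes was called. The 5 calls were fragile: none was left without MC38 replicate 1, MC38 replicate 2, MC38OVA replicate 2 or CT26NYESO1 replicate 2 (adjusted p 0.0534 to 0.105), 1 without CT26NYESO1 replicate 1 or MC38OVA replicate 3, 2 without CT26 replicate 1, and none with the leukocyte covariate (0.564 to 0.726).

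**Figure D3:**
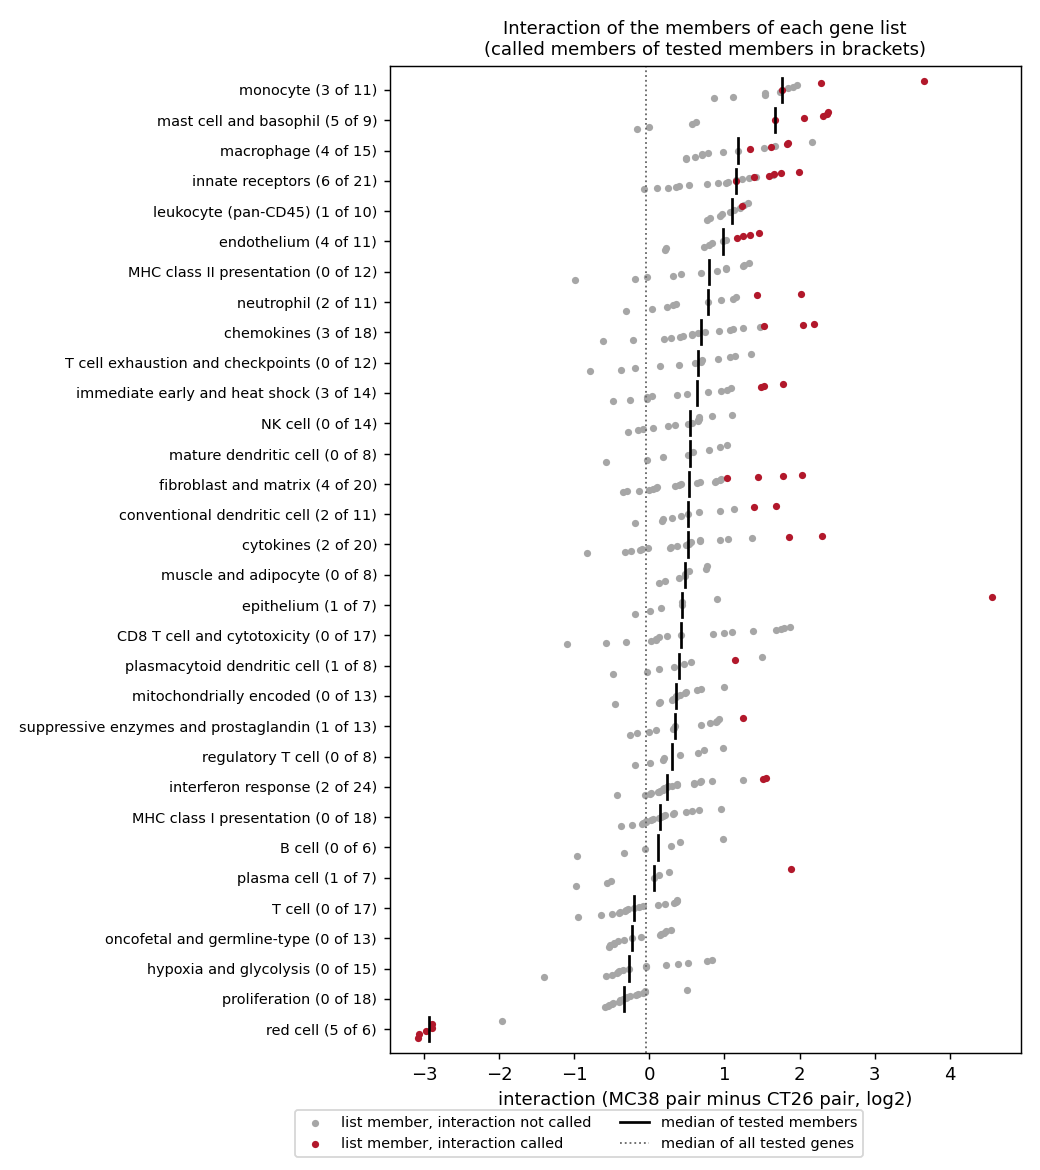
Interaction (log2) of each tested member of the gene lists with at least 5 tested members, ordered by list median; red points are called members, black bars list medians, and the dotted line is the median of all tested genes (-0.04). Monocyte, mast cell and macrophage lists lie at the top and the red cell list, with 5 of 6 members called, at the bottom.

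Most lymphocyte and antigen presentation lists held no called interaction. None of 17 T cell, 17 CD8 T cell and cytotoxicity, 14 NK cell, 8 regulatory T cell, 18 MHC class I or 12 MHC class II genes was called, with medians of -0.20, 0.42, 0.55, 0.30, 0.15 and 0.79. With the leukocyte covariate these medians were -0.87, -0.33, -0.39, -0.28, -0.16 and -0.65, so 5 of them turned negative. Of the B lineage, none of 6 B cell genes and 1 of 7 plasma cell genes was called, as positive (3.14% of all genes), and none of either list with that covariate. A missed threshold does not show equal changes. Of the T cell genes 2 rose in the CT26 pair, against 0.524% of all genes: Cd3g and Cd3e, chains of the T cell receptor complex (1.19 ± 0.27 and 1.01 ± 0.28, SE, against 0.24 ± 0.27 and 0.51 ± 0.28 in the MC38 pair, which were not called). Their interactions of -0.95 ± 0.38 and -0.50 ± 0.39 did not pass (adjusted p = 0.16 and 0.516). In the CT26 pair 5 genes of the cytotoxicity list fell, all of them granzymes (Gzmc, Gzmd, Gzme, Gzmf and Gzmg), and 1 rose, Cd8a (2.45% and 0.524% of all genes), while Gzma, Gzmb and Gzmk were not called. Gzmd stood at 193, 59.9 and 95.5 TPM in MC38OVA, against 127, 197 and 245 TPM in MC38, and at 3.59, 3.02 and 7.64 TPM in CT26NYESO1, against 50.4, 10.3 and 61.8 TPM in CT26, with wide spread in both pairs and an interaction of 1.80 ± 0.70 (SE, adjusted p = 0.149). Without CT26 replicate 2, in which Gzmd was lowest of the CT26 libraries, 7 genes of that list had a called interaction. Of the 12 MHC class II genes 7 rose in the MC38 pair (2.26% of all genes), where no gene at all was called as a rise with the leukocyte covariate, and their changes in the CT26 pair had a median of 0.64, with no call. Of 24 interferon response genes, Mx1 (1.56 ± 0.40) and Irf7 (1.51 ± 0.38) were called (3.14% of all genes were, as positive). With the leukocyte covariate none was called and the list's median of 0.24 turned to -0.37. Of the list, 6 genes were called without CT26 replicate 2, 1 without CT26NYESO1 replicate 1, CT26NYESO1 replicate 3 or MC38 replicate 1, and none without CT26 replicate 1, CT26 replicate 3, CT26NYESO1 replicate 2, MC38 replicate 2, MC38OVA replicate 2 or MC38OVA replicate 3.

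Among the genes of other cells and states, 4 of 11 endothelial genes (Emcn, Plvap, Kdr and Pecam1), 4 of 20 fibroblast and matrix genes and 3 of 14 immediate early genes were called, all positive (3.14% of all genes). With the leukocyte covariate 0, 2 and 1 of them were called, and the list medians were 1.04, 0.31 and 0.41, against 0.98, 0.53 and 0.64 without it. The endothelial calls were thus lost without a smaller median. Pecam1, the adhesion molecule CD31, stood at 18.8, 21.4 and 21.6 TPM in MC38OVA, against 11.2, 10.3 and 14.2 TPM in MC38, and at 6.56, 5.31 and 5.68 TPM in CT26NYESO1, against 6.04, 8.40 and 10.4 TPM in CT26. The interaction was 1.17 ± 0.29 (SE, adjusted p = 0.0276). In the fibroblast list the pattern was mixed: Col6a3 and Dcn were called through falls in the CT26 pair (-2.36 ± 0.23 and -2.36 ± 0.25, SE), and Acta2 through a rise in the MC38 pair (1.24 ± 0.28). Dcn, a small proteoglycan of connective tissue, stood at 55.8, 71.1 and 85.6 TPM in MC38OVA, against 95.7, 159 and 75.4 TPM in MC38, and at 81.2, 87.7 and 57.5 TPM in CT26NYESO1, against 333, 506 and 337 TPM in CT26. Its interaction was 1.78 ± 0.36 (SE, adjusted p = 0.00758). Egr1, an early growth response factor, stood at 13.4, 14.7 and 16.6 TPM in MC38OVA, against 14.98, 19.8 and 11.8 TPM in MC38, and at 53.9, 65.3 and 51.9 TPM in CT26NYESO1, against 181, 157 and 158 TPM in CT26. The interaction was 1.49 ± 0.27 (SE, adjusted p = 0.00303). The immediate early calls, Fos, Dusp1 and Egr1, are genes that cells switch on within minutes of a stimulus, and without CT26 replicate 2 the list held 6 calls. Fibroblast calls numbered 2 without CT26 replicate 3, CT26NYESO1 replicate 2, CT26NYESO1 replicate 3, MC38 replicate 1 or MC38OVA replicate 3. Endothelial calls numbered 2 without CT26 replicate 2 or CT26NYESO1 replicate 1, 1 without MC38OVA replicate 2, and 0 without CT26 replicate 3, CT26NYESO1 replicate 2, CT26NYESO1 replicate 3, MC38 replicate 1, MC38 replicate 2 or MC38OVA replicate 3. None of 18 proliferation, 15 hypoxia and glycolysis or 13 oncofetal genes was called, with medians of -0.33, -0.28 and -0.24.

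Of the gene lists, only that of red cells held called negative interactions, in 5 of 6 tested genes (0.78% of all genes). Hbb-bs, an adult beta-globin gene, stood at 731, 460.4 and 428 TPM in MC38OVA, against 2156, 2471 and 12538 TPM in MC38, and at 4287, 3795 and 1929 TPM in CT26NYESO1, against 1739, 4340.0 and 3273 TPM in CT26. All MC38OVA libraries lay below all MC38 libraries while the CT26 pair overlapped. The interaction was -3.06 ± 0.69 (SE, adjusted p = 0.0162). Hbb-bt, Alas2 (the first enzyme of haem synthesis in red cells), Hba-a1 and Hba-a2 had interactions of -3.08 ± 0.73, -2.98 ± 0.74, -2.89 ± 0.70 and -2.89 ± 0.70 (SE). Reads may be shared between the globin copies, so their levels are not independent measurements. MC38 replicate 3 held the highest globin levels of the 12 libraries, and without it all 5 calls were kept at smaller interactions, of -2.25 to -2.05, against -3.08 to -2.89 with it. Between 3 and 4 of the 5 were lost without CT26 replicate 1, CT26NYESO1 replicate 1, CT26NYESO1 replicate 2, MC38OVA replicate 2 or MC38OVA replicate 3 (adjusted p 0.0513 to 0.0689). All 5 were lost with median-ratio scaling (0.0611 to 0.0786), the leukocyte covariate (0.148 to 0.244) or all 30 libraries in the fit (0.0984 to 0.156). The interactions themselves hardly moved, at -3.09 to -2.89 with the covariate and -3.05 to -2.86 with the scaling.

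Outside the red cell list, the named genes with a negative interaction rose in the CT26 pair. Pnma5 (chromosome X, 73033981 to 73037103), a paraneoplastic antigen gene, stood at 10.03, 2.87 and 21.8 TPM in MC38OVA, against 23.01, 35.1 and 13.3 TPM in MC38, and at 55.5, 47.2 and 47.2 TPM in CT26NYESO1, against 0.438, 1.90 and 1.08 TPM in CT26. CT26NYESO1 stood above all other libraries, the MC38 pair overlapped. The interaction was -5.85 ± 0.63 (SE, adjusted p = 1.34e-05). Cldn6, an embryonic tight junction claudin, stood at 0.258, 0.197 and 0.0508 TPM in MC38OVA, against 0.0726, 0.236 and 0.180 TPM in MC38, and at 107, 151 and 130.3 TPM in CT26NYESO1, against 20.9, 25.4 and 20.5 TPM in CT26, so it was expressed in the CT26 pair only. Its interaction was -2.47 ± 0.27 (SE, adjusted p = 2.19e-05). Rhbdl2, a rhomboid protease, stood at 18.9, 24.4 and 15.8 TPM in MC38OVA, against 22.6, 29.7 and 18.01 TPM in MC38, and at 4.86, 4.96 and 4.92 TPM in CT26NYESO1, against 0.424, 0.628 and 0.198 TPM in CT26. Here the MC38 pair was the higher one and overlapped. The interaction was -2.31 ± 0.31 (SE, adjusted p = 0.000206). Fgf11 and Palm3 had interactions of -2.06 ± 0.31 and -2.05 ± 0.28 (SE) with changes of 1.66 ± 0.22 and 1.84 ± 0.19 in the CT26 pair.

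Inmt, an indolethylamine methyltransferase, was listed at 0 in all MC38OVA libraries and reached 0.131 TPM in MC38. In the CT26 pair it stood at 111, 126 and 30.1 TPM in CT26NYESO1, against 2.20, 16.6 and 17.1 TPM in CT26. Its interaction was -3.01 ± 0.73 (SE, adjusted p = 0.0248). The call was lost without CT26NYESO1 replicate 1 or 2, any MC38 replicate or MC38OVA replicate 3 (adjusted p 0.0505 to 0.0686). Ccnb1ip1 (chromosome 14, 50789248 to 50807732), a ubiquitin ligase of meiotic crossing over, stood at 0.0333, 0.103 and 0.494 TPM in MC38OVA, against 0.203, 1.18 and 0.0437 TPM in MC38, and at 12.1, 18.3 and 19.8 TPM in CT26NYESO1, against 2.05, 1.42 and 3.66 TPM in CT26. The interaction was -2.65 ± 0.40 (SE, adjusted p = 0.000768). Its annotated span overlaps Rpph1, the RNA of RNase P, on the same strand, so reads where the genes overlap cannot be told apart. The other 6 of these 7 genes kept their call under every alternative that tested them, but Cldn6 and Ccnb1ip1, like Inmt, were not tested with a mean of at least 1 TPM required in a line of each pair.

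Called interactions were not spread evenly over the chromosomes. Negative calls made up 3.37% of 504 tested genes of chromosome 19 (17 genes) and 2.06% of 775 of chromosome 3, against 0.78% of all, and positive calls 6.56% of 366 genes of chromosome 18, against 3.14%. The median CT26 pair change was 0.27 on chromosome 19 and -0.24 on chromosome 18, where MC38 pair medians were -0.04 and -0.04. On the other chromosomes CT26 pair medians lay between -0.03 (chromosome 12) and 0.05 (chromosome 3). Taken by library, relative to the mean of the pair and the median of all genes, chromosome 19 stood at 0.16, 0.13 and 0.15 in CT26NYESO1, against -0.16, -0.16 and -0.11 in CT26. Chromosome 18 stood at -0.13, -0.18 and -0.08 in CT26NYESO1, against 0.18, 0.13 and 0.14 in CT26. The 6 libraries of the CT26 pair were thus apart on both chromosomes, and in the MC38 pair the same values stayed between -0.02 and 0.03. This summary by chromosome was made after the values were seen and was not tested.

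**Figure D4:**
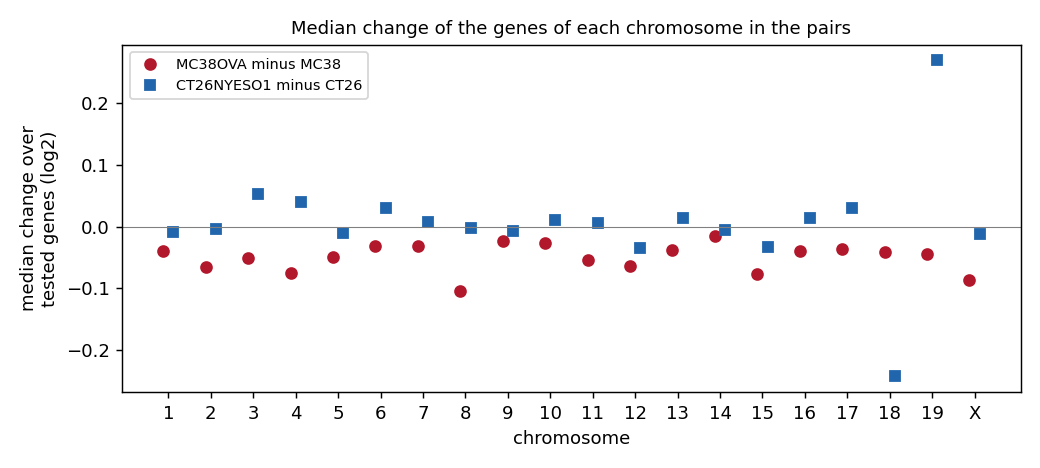
Median change (log2) over the tested genes of each chromosome in the MC38 pair (red circles) and the CT26 pair (blue squares). The CT26 pair stands at 0.27 on chromosome 19 and -0.24 on chromosome 18, and all other medians of either pair lie between -0.10 and 0.05.

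Genes that moved alike were few, 18 falls (0.115% of those tested) and 1 rise (0.00639%), and most of the falls were small non-coding RNAs. Of the 18, 9 were genes of U1, the small nuclear RNA that pairs with the start of introns in splicing, 3 of 7SL, the RNA of the signal recognition particle that brings ribosomes to the endoplasmic reticulum, 2 resembled 7SK, and 1 was Rpph1, the RNA of RNase P, which trims precursor transfer RNAs. The remaining 3 were the coding genes Avil, P2rx3 and Grem1. In gene types over the whole table, 19 of 59 tested snRNA genes fell in the MC38 pair and 13 in the CT26 pair, against 0.371% and 2.45% of all genes, and 6 and 7 of 22 in the misc_RNA type, which holds 7SL and 7SK. These RNAs carry no poly(A) tail, and the labels name a kit for mRNA, so the levels are those carried through that preparation.

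The sequences of a pair of U1 genes are shown because copies that are identical or nearly so cannot be told apart by reads, and their rows are then not separate measurements. Both are from the genes' mm10 positions, 5′ to 3′, with T for U.
Rnu1a1, chr11:87422867-87423030, plus strand, with the stretch that pairs with the 5′ splice site in capitals: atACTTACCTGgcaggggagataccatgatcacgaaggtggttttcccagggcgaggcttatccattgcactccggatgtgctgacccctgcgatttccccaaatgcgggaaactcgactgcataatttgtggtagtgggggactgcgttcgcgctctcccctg
Gm25890, chr3:96486555-96486719, minus strand, with the bases that differ from Rnu1a1 in capitals: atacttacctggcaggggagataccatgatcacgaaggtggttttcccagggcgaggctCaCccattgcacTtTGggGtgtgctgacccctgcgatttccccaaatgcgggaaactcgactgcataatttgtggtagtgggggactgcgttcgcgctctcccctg
Of the 9 U1 genes, 7 (Rnu1a1, Gm22068, Gm22317, Gm22634, Gm23804, Gm25679 and Gm26444) are identical over 164 bases, Gm26244 differs at 1 position, and Gm25890 is 96.4% identical, with 6 differing positions. Rn7s1 and Rn7s2 are identical over 300 bases, and Rn7s6 is 84.4% identical to them. Gm24447 and Gm26315 are 82.4% and 83.4% identical to the 7SK gene Rn7sk.

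Among these RNAs, 7SL fell the most in the MC38 pair on the log2(TPM + 1) scale. Rn7s1 stood at 24.4, 17.6 and 34.98 TPM in MC38OVA, against 246, 150.2 and 119 TPM in MC38, and at 25.2, 45.3 and 57.4 TPM in CT26NYESO1, against 146, 70.8 and 195 TPM in CT26. Neither pair overlapped, and the changes were -2.68 ± 0.35 (SE, adjusted p = 0.000908) and -1.62 ± 0.35 (SE, adjusted p = 0.00677). Its interaction was -1.06 ± 0.49, with a 95% interval of -2.09 to -0.02. Rn7s2, of the same sequence, had changes of -2.67 and -1.62. Rn7s6 stood at 0, 1.62 and 2.15 TPM in MC38OVA, against 24.7, 15.02 and 8.87 TPM in MC38, and at 2.46, 3.14 and 2.71 TPM in CT26NYESO1, against 13.8, 6.84 and 14.5 TPM in CT26, with changes of -2.98 ± 0.38 and -1.69 ± 0.38. The 3 genes kept both calls whichever library was left out. In the CT26 pair all 3 falls were lost with all 30 libraries in the fit (adjusted p 0.286 to 0.313) and with no filter on low values (0.119 to 0.128), and that of Rn7s6 with a pseudocount of 0.1 (0.172). In the MC38 pair Rn7s1 and Rn7s2 were lost with all 30 libraries (0.0570 to 0.0571) and all 3 with no filter (0.0790 to 0.0910).

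The U1 genes stood lower than Rn7s1 and, in the MC38 pair, fell by less on the log2(TPM + 1) scale, which understates changes of low genes. With a pseudocount of 0.1 their MC38 pair changes ran from -3.07 to -1.63. Those of the 7SL genes then ran from -4.36 to -2.71, so the ranges overlapped. Rnu1a1 stood at 1.27, 1.43 and 1.32 TPM in MC38OVA, against 7.72, 3.90 and 2.74 TPM in MC38, and at 1.74, 3.06 and 2.49 TPM in CT26NYESO1, against 7.66, 3.91 and 12.7 TPM in CT26, with changes of -1.21 ± 0.32 (SE, adjusted p = 0.041) and -1.30 ± 0.32 (SE, adjusted p = 0.0171). All 6 libraries of MC38OVA and CT26NYESO1 lay at 3.06 TPM or below. However, MC38 replicate 3, at 2.74 TPM, lay below CT26NYESO1 replicate 2, so only within each pair were the lines apart. Gm25890, the copy with the most differences, stood at 0.619, 0.275 and 0.389 TPM in MC38OVA, against 7.70, 4.53 and 2.06 TPM in MC38, and at 0.211, 0.597 and 1.04 TPM in CT26NYESO1, against 3.29, 0.990 and 4.55 TPM in CT26, and its CT26 pair overlapped. Over the 9 U1 genes the MC38 pair changes ran from -1.89 to -1.16 and the CT26 pair changes from -1.65 to -1.20, and the interactions from -0.70 to 0.10, none called. All 9 falls in the MC38 pair were lost without MC38 replicate 2, MC38OVA replicate 2 or MC38OVA replicate 3 (adjusted p 0.0508 to 0.176), 8 without MC38 replicate 1, 3 without MC38OVA replicate 1 and 1 (Gm26244) without CT26NYESO1 replicate 1 or 3, and in the CT26 pair 5 were lost without CT26NYESO1 replicate 1, 4 without CT26 replicate 1 or 3, and 1 (Gm25890) without CT26NYESO1 replicate 2, MC38 replicate 2, MC38OVA replicate 2 or MC38OVA replicate 3.

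Rpph1 (chromosome 14, 50807449 to 50807767) stood at 5.11, 4.23 and 7.08 TPM in MC38OVA, against 48.01, 27.8 and 22.05 TPM in MC38, and at 0.375, 0.509 and 0.637 TPM in CT26NYESO1, against 3.02, 1.46 and 2.23 TPM in CT26. It was far higher in the MC38 pair, yet lower in MC38OVA and in CT26NYESO1 than in their parental lines. The changes were -2.33 ± 0.26 (SE, adjusted p = 0.000328) and -1.08 ± 0.26 (SE, adjusted p = 0.0166). Its fall in the CT26 pair was lost without CT26 replicate 1, CT26 replicate 3, CT26NYESO1 replicate 1 or CT26NYESO1 replicate 2 (adjusted p 0.0513 to 0.0964). Ccnb1ip1, which overlaps it, rose in the CT26 pair and so went the other way. Gm24447 and Gm26315, the genes that resemble 7SK, had MC38 pair changes of -1.81 and -1.83 and CT26 pair changes of -1.40 and -1.34. Both lost a call without MC38 replicate 2, MC38OVA replicate 2, CT26 replicate 1, CT26 replicate 3 or CT26NYESO1 replicate 1 (adjusted p 0.0584 to 0.101). Gm26315 lies within the gene Celf2.

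Summed over the 15 small RNA genes, levels were 66.1, 55.0 and 101 TPM in MC38OVA, against 677, 414 and 311 TPM in MC38, and 65.6, 123 and 149 TPM in CT26NYESO1, against 397, 194 and 530 TPM in CT26. The highest library of MC38OVA or CT26NYESO1 stood below the lowest parental library. The 15 genes were summed because they had fallen in both pairs, so this follows in large part from that choice. In the other 18 libraries of the series, which do not enter the comparison, the same sum ran from 22.3 to 1321 TPM, and among the 3 replicates of the line CMS5a from 22.3 to 392 TPM, a wider ratio than between any libraries of the MC38 or the CT26 pair. Neither the leukocyte score nor the haemoglobin share moved alike in both pairs. The mitochondrial share ran from 20.9% to 25.8% in MC38OVA, against 13.8% to 27.5% in MC38, and from 14.4% to 16.9% in CT26NYESO1, against 11.03% to 18.99% in CT26, with overlap in both pairs.

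Of the coding genes that moved alike, Avil (chromosome 10, 127000709 to 127020994), the gene of advillin, an actin-binding protein of sensory neurons and tuft cells, stood at 5.13, 2.05 and 2.57 TPM in MC38OVA, against 8.72, 14.6 and 8.56 TPM in MC38, and at 0.518, 0.859 and 0.741 TPM in CT26NYESO1, against 5.56, 9.26 and 8.15 TPM in CT26. Its changes were -1.48 ± 0.27 (SE, adjusted p = 0.0129) and -2.32 ± 0.27 (SE, adjusted p = 1.23e-05), and its interaction of 0.84 ± 0.38 had a 95% interval of 0.06 to 1.63. P2rx3, an ATP-gated channel of sensory neurons, stood at 1.98, 1.06 and 0.957 TPM in MC38OVA, against 3.73, 7.18 and 2.35 TPM in MC38, and at 0.873, 0.885 and 0.565 TPM in CT26NYESO1, against 6.43, 13.8 and 9.36 TPM in CT26. Neither pair overlapped, its changes were -1.14 ± 0.29 (SE, adjusted p = 0.0369) and -2.56 ± 0.29 (SE, adjusted p = 1.23e-05). Its interaction was 1.42 ± 0.41 (SE, adjusted p = 0.0588). Grem1, a secreted antagonist of bone morphogenetic proteins, stood at 45.2, 19.8 and 28.9 TPM in MC38OVA, against 65.1, 78.00 and 43.6 TPM in MC38, and at 9.73, 9.25 and 11.6 TPM in CT26NYESO1, against 93.3, 104 and 78.7 TPM in CT26. Its changes were -1.01 ± 0.25 (SE, adjusted p = 0.0333) in the MC38 pair, where MC38OVA replicate 1 overlapped the MC38 libraries, and -3.05 ± 0.25 (SE, adjusted p = 1.8e-07) in the CT26 pair. Its interaction of 2.04 ± 0.36 (SE, adjusted p = 0.00248) was itself called, so it moved in the same direction but not by the same amount.

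The falls of these 3 genes in the CT26 pair were kept whichever library was left out. In the MC38 pair all 3 were lost without MC38 replicate 2, MC38OVA replicate 2 or MC38OVA replicate 3 (adjusted p 0.0585 to 0.261), P2rx3 and Grem1 without MC38 replicate 1, and all 3 with the leukocyte covariate, where the changes were -0.61 for Avil, -0.25 for P2rx3 and -0.15 for Grem1. The leukocyte score was higher in MC38OVA than in MC38, and its part in these falls was not otherwise tested. Avil overlaps Tsfm, P2rx3 overlaps Ssrp1, Thbs1 overlaps Gm29233, Il1b overlaps Il1bos and Alas2 overlaps Apex2 on the opposite strand, and Rnu1a1 lies within Tex14, so reads in those stretches cannot be told apart.

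The one gene that rose in both pairs was Trbv31, a variable segment of the T cell receptor beta chain, which stands apart from the others in lying downstream of the constant regions in the opposite orientation. It stood at 1.68, 5.21 and 4.41 TPM in MC38OVA, against 0, 0 and 0.616 TPM in MC38, and at 4.83, 1.42 and 3.04 TPM in CT26NYESO1, against 0.205, 0.769 and 0 TPM in CT26. No library of MC38OVA or CT26NYESO1 overlapped its parental line, and the changes were 1.93 ± 0.33 (SE, adjusted p = 0.0123) and 1.58 ± 0.33 (SE, adjusted p = 0.00551). The interaction was 0.35 ± 0.47, with a 95% interval of -0.63 to 1.33. Of 28 tested T cell receptor variable segments, 4 rose and 1 fell in the MC38 pair and 2 rose in the CT26 pair (2.26%, 0.371% and 0.524% of all genes). The MC38 pair rise was lost without MC38 replicate 2, MC38OVA replicate 2 or MC38OVA replicate 3 (adjusted p 0.0506 to 0.0657).

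**Figure D5:**
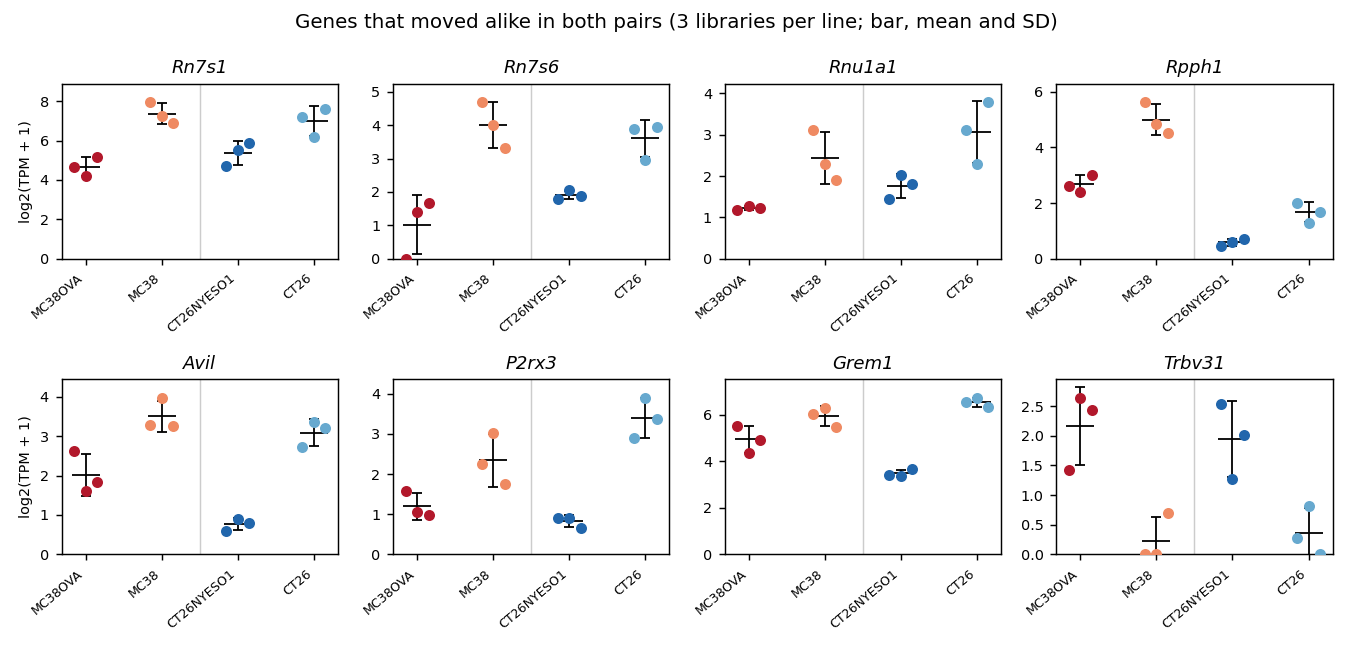
Levels, in log2(TPM + 1), of 8 of the 19 genes that moved alike, with 1 point for each library and the mean and SD (n = 3) for each line. In the first 7 panels the means of MC38OVA and CT26NYESO1 lie below those of MC38 and CT26, and in Trbv31 above them, and MC38OVA and MC38 points overlap in Grem1.

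The count of genes moving alike depended on single libraries. Falls numbered 4 without MC38 replicate 2 or MC38OVA replicate 2, 6 without MC38OVA replicate 3, 10 without CT26NYESO1 replicate 1, 11 without CT26 replicate 1 or CT26 replicate 3, 12 without MC38 replicate 1, 28 without CT26 replicate 2 and 30 without MC38 replicate 3. Rises numbered 9 without CT26 replicate 3, 3 without MC38OVA replicate 1, 2 without CT26NYESO1 replicate 3, and 0 without MC38 replicate 2, MC38OVA replicate 2 or MC38OVA replicate 3.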

How the data were processed

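Gene-level TPM of 12 of the series' 30 libraries, 3 for each of MC38OVA, MC38, CT26NYESO1 and CT26, were used as deposited by the authors. Per the labels' protocols, RNA extracted with TRIzol from digested tumours was made into libraries with a stranded mRNA kit. Per the submitters' processing notes, Trim Galore 0.6.5, STAR 2.7.3a, StringTie 2.1.2 and mm10 were used, while the annotation and the use of strand are not given in the sources used here. The deposited TPM sum to the same total in each library and hold no counts, so depth is unknown and only the spread among 3 libraries a line sets the precision.

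Of 55291 symbols, the 15648 that reached 1 TPM in 3 or more libraries were fitted on log2(TPM + 1), a scale that understates changes of low genes. limma 3.58.1 (R 4.3.3, empirical Bayes with a mean trend) fitted 4 line means with 8 residual degrees of freedom; contrasts were both pair changes and their difference, with Benjamini-Hochberg adjustment over all tested genes within each contrast. The fit was tested on simulated data. Some called genes and sequences are not reported here. Positions come from GENCODE M21 (mm10), promoter windows from RefSeq (GRCm38.p6).

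Named genes were the 12 positive and 12 negative called interactions of largest size, the 8 largest of each direction among list members, up to 8 genes called in opposite directions, up to 12 falls and 12 rises alike, and up to 4 examples a list; predicted genes and receptor segments were left out of this rule. The predicted genes and Trbv31 among those alike, family members, and Cd3g, Cd3e, Cd8a and granzyme genes were named after their values were seen. Members and lists were chosen with earlier results of these data known, and the families, the motif, the grouping of small RNAs and the summary by chromosome were chosen after the values were seen. Alternatives changed the pseudocount, filter, scaling, fold threshold, trend, the libraries in the fit, a leukocyte covariate, a replicate block and each library in turn.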

Additional observations from a re-analysis of the deposited data

Results flagged for a closer look

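The effects of the pair change were compared between the pairs by the interaction of limma, and a called interaction marks a difference between groups. It was called in 492 positive and 122 negative genes. The named genes among them, each with the difference of its pair changes in log2(TPM + 1), follow by the side on which the change was called.

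Where the CT26 pair fell and the MC38 pair was not called, the interaction was 5.90 for Aldh3a1, 5.62 for Selp, 4.56 for Krt20, 4.42 for Plekha6, 4.38 for Mmp3, 3.87 for Slit3, 3.75 for Slc1a2, 3.70 for Thbs2, 3.50 for Ceacam1 and 2.20 for Cxcl5. Where the MC38 pair rose and the CT26 pair fell, it was 4.40 for Mmp13, 3.99 for Mmp12, 3.07 for Thbs1, 2.78 for Pf4, 2.52 for Abca1, 2.48 for Gpr141 and 2.30 for Il1b. Where the MC38 pair alone was called, it was 2.39 for Cma1, 2.37 for Mcpt4, 2.31 for Tpsb2 and 2.29 for Chil3. Grem1, which fell in both pairs, had an interaction of 2.04.

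Where the CT26 pair alone rose, the interaction was -5.85 for Pnma5, -3.01 for Inmt, -2.65 for Ccnb1ip1, -2.47 for Cldn6, -2.31 for Rhbdl2, -2.06 for Fgf11 and -2.05 for Palm3. Where the MC38 pair alone fell, it was -3.08 for Hbb-bt, -3.06 for Hbb-bs, -2.98 for Alas2, -2.89 for Hba-a1 and -2.89 for Hba-a2. Groups of 3 libraries are too small for a formal test of an outlying library, so each library was left out in turn.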

How the results depend on the processing

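Against 492 positive and 122 negative interactions, 18 falls alike and 1 rise alike, the leukocyte covariate gave 113, 17, 4 and 0, and no filter on low values, which adds genes to the adjustment, 146, 38, 0 and 0. All 30 libraries in the fit gave 73 negative interactions and 7 falls alike. Rises alike numbered 5 with no fold threshold, 2 with a pseudocount of 0.1 and 3 with a replicate block. Leaving out single libraries, positive interactions ranged from 238 to 952, negative from 54 to 353, falls alike from 4 to 30 and rises alike from 0 to 9, and the share of positive calls fell to 61.5% without MC38 replicate 3. The cause was not tested in any of these cases. Median-ratio scaling (639 and 126 interactions), limma without trend, removal of mitochondrial and haemoglobin genes, and a mean of at least 1 TPM in a line of each pair kept all 4 counts within 1.5 times. Of 1836 comparisons of 88 named values under 21 alternatives, none changed sign, 1488 kept direction and side of the threshold and 348 lost only the call. Same-numbered libraries of different lines correlated at -0.15 to 0.28 in their deviations from the line means, 4 of 18 pairs over 0.1. Differently numbered libraries reached 0.29. The samples were not treated as paired, but with 3 libraries a line this check cannot show whether same-numbered libraries share a batch. The replicate block gave 523 and 107 interactions and 20 falls alike and changed no named call. Of the list medians printed, those of CD8 T cell, NK cell, regulatory T cell, MHC class I, MHC class II and interferon response genes, and of conventional dendritic (-0.05), pan-leukocyte (-0.01) and oncofetal genes (0.04), changed sign with the leukocyte covariate. So did MHC class I genes without CT26 replicate 1 (-0.02) or CT26 replicate 3 (-0.12) and T cell genes without CT26 replicate 2 (0.04). The median over all genes ran from -0.19 to 0.06 when single libraries were left out. With depth unknown, values near 0 TPM cannot be given a counting error.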

Other observations

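In the 18 libraries of the other lines, some genes with a strong change in the CT26 pair were low and others high. The highest mean of any other line was 1.13 TPM in LL2 for Selp, 0.506 TPM in Renca for Krt20, 0.176 TPM in Renca for Slc1a2 and 0.162 TPM in CMS5a for Cldn6. It was 6.95 TPM in CMS5a for Aldh3a1, 15.1 TPM in B16F1 for Plekha6, 35.8 TPM in CMS5a for Slit3, 93.4 TPM in CMS5a for Pnma5, 284 TPM in CMS5a for Thbs2 and 625 TPM in LL2 for Mmp3.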
